A study of Homo sapiens with 5 samples.

Results

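LIN28B, the IGF2BP family (IGF2BP1, IGF2BP2 and IGF2BP3) and the HMGA pair (HMGA1 and HMGA2) are grouped here as oncofetal genes. Such genes are typically active in the embryo, quiet in most adult tissue and active again in many tumours. The pattern need not hold for each member, and no adult tissue was measured. All 6 were looked up by symbol among the 26364 gene symbols measured in the SH-SY5Y line, human neuroblastoma cells often used as a model of neuronal differentiation, and each had an entry in all 5 libraries. LIN28B is an RNA-binding protein that blocks the maturation of let-7, a family of small RNAs that accumulate as cells differentiate. The IGF2BP proteins bind and stabilise mRNAs of growth genes, and the HMGA proteins bind AT-rich DNA and bend chromatin. LIN28B, HMGA2 and the IGF2BP mRNAs are themselves known targets of let-7, which lowers the mRNAs it pairs with. Whether the members act together through let-7 in these cells was not tested. In neuroblastoma LIN28B is a known oncogene that raises MYCN.

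Each of the 5 groups had 1 library, and all cells were kept in medium with 10% fetal bovine serum and 1% penicillin/streptomycin. siSTAU1 cells received an siRNA against STAU1, a binder of double-stranded RNA, and siUPF1 cells an siRNA against UPF1, the helicase of nonsense-mediated and Staufen-mediated mRNA decay, while siControl cells received a control siRNA. Cells labelled Differentiation were compared with cells labelled Nondifferentiation, and the medium labels of both list 50 µM retinoic acid. No retinoic acid is listed for the siRNA libraries. The series asks which transcripts are higher both after loss of either factor and in differentiation.

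Values are log2 expression values from 3' end sequencing, which counts 1 tag per transcript, so levels of different genes can be set side by side without dividing by length. Estimated depth was about 16200000 reads in siSTAU1, 18100000 in siUPF1, 15800000 in siControl, 30400000 in Differentiation and 18700000 in Nondifferentiation. No comparison has a second library on either side, so the spread between cultures is unknown and no test was possible. For this reason a gene is called higher or lower only when it differs at least 2-fold and at least 1 of its 2 values reaches the median nonzero value of the pair, a log2 value between 7.76 and 7.84. Intervals given with a log2 fold are 95% counting intervals from estimated reads and leave out the unknown spread between cultures. STAU1 stood at 11.34 in siSTAU1 and 12.87 in siControl, and UPF1 at 9.20 in siUPF1 and 10.74 in siControl, so each target was lower in the library labelled for it. Noradrenergic neuroblastoma markers were above 0 in all 5 libraries, 9 of 9 genes.

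The sequences behind the let-7 link are shown first. All 9 mature let-7 family RNAs in the RefSeq table (build GRCh38.p14) share 1 seed, bases 2 to 8, shown in capitals, which is the stretch that pairs with a target. These 3 show how alike the family is.
let-7a: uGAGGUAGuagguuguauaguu
let-7i: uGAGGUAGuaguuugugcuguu
miR-98: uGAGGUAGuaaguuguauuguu

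The 7 letters that pair with this seed, CTACCTC, were searched on the sense strand of the 3' UTR of 1 principal coding transcript per gene (GENCODE 29). All 6 members held it, against 8.58% of 19098 3' UTRs. The longer match CTACCTCA, with an A opposite the first base of let-7 and containing the 7 letters, was present in 5 of the 6 members, against 3.26% of all. HMGA1 was the member without it. A match is a description of the letters and not a measured site, and several of the members were already known as let-7 targets. The sites below are 1 from each member, the match nearest the stop codon, with the matching letters in capitals.
LIN28B: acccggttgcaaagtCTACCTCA
IGF2BP1: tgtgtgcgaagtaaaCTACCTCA
IGF2BP2: aacacacagaagaagCTACCTCA
IGF2BP3: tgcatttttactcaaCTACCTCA
HMGA1: tcctctgttcacaaaCTACCTCt
HMGA2: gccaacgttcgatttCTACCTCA

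LIN28B, IGF2BP1 and HMGA2 each carried 4 of the 7-letter matches, a number reached by 12 of all 3' UTRs searched. IGF2BP1 had 3 of the 8-letter matches, as many or more than which were found in 8 3' UTRs in all. LIN28B had 2, and the other IGF2BP genes and HMGA2 had 1. Since a longer 3' UTR has more places for a match, like lengths were compared: among 3' UTRs of like length (down to 0.8 times the member's, and longer by up to the inverse factor), 23.5% held at least 1 for LIN28B (4549 bases), 29.8% for IGF2BP1 (6206 bases) and 14.8% for HMGA2 (3003 bases). As many as 4 matches occurred in 0.230%, 0.546% and 0.0985% of these. For IGF2BP2 (1792 bases), IGF2BP3 (2153 bases) and HMGA1 (1347 bases), with 1 match each, the shares of like-length 3' UTRs with a match were 11.6%, 11.9% and 8.47%.

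**Figure D1:**
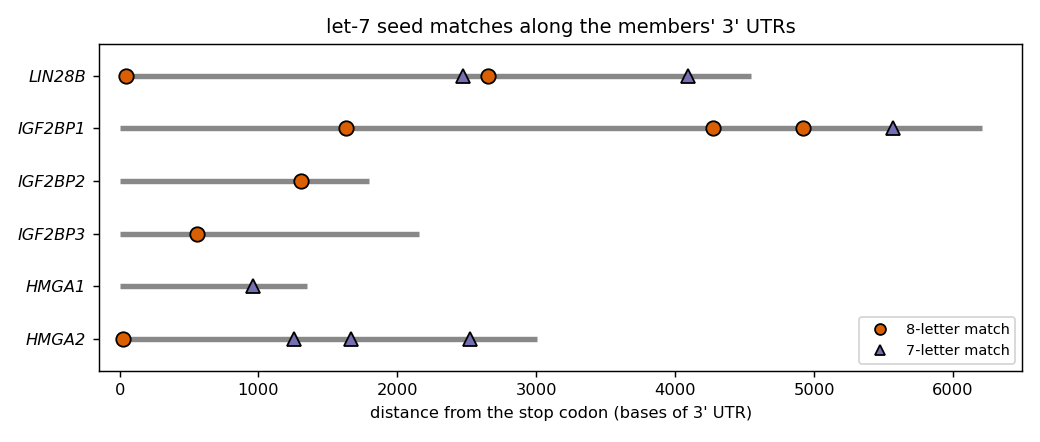
Positions of let-7 seed matches along the 3' UTR of each member, as distance in bases from the stop codon; circles are 8-letter matches, triangles 7-letter matches and grey bars the 3' UTR. LIN28B, IGF2BP1 and HMGA2 have 4 matches each and HMGA1 has a single 7-letter match.

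The members lay at very different levels, in the same order in every library from HMGA1 through IGF2BP3 and IGF2BP1 to LIN28B. HMGA1 stood at 14.04 in siSTAU1, 13.80 in siUPF1, 13.75 in siControl, 12.58 in Differentiation and 13.91 in Nondifferentiation. It was thus among the most abundant mRNAs of the cells, in place 147 of all genes in siSTAU1, in place 591 in Differentiation and in place 164 in Nondifferentiation. IGF2BP3 stood at 9.60, 9.51 and 9.58 in siSTAU1, siUPF1 and siControl, and at 9.07 in Differentiation and 9.36 in Nondifferentiation. It was the most abundant of the IGF2BP paralogs in each library. IGF2BP1, the paralog best known from axonal transport of beta-actin mRNA, stood at 8.18, 7.69 and 8.02 in the same 3 siRNA libraries, and at 7.13 in Differentiation and 7.56 in Nondifferentiation. LIN28B stood at 6.99, 6.52 and 6.81 in the siRNA libraries, and at 5.79 in Differentiation and 6.71 in Nondifferentiation, from about 85 to 106 reads. In each of these 4 genes Differentiation was the lowest of the 5 libraries. The share of all genes that were lowest there was not counted, so this cannot be read as particular to these genes. Genes in general differed most in that library's pair: 21.3% of measured genes were called, beside 0.201% to 0.796% in the other comparisons. The gap between HMGA1 and IGF2BP3 was 3.51 to 4.55 log2 units over the libraries, that between IGF2BP3 and IGF2BP1 was 1.42 to 1.94, and that between IGF2BP1 and LIN28B was 0.85 to 1.34.

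IGF2BP2 and HMGA2 were at the edge of detection. IGF2BP2 stood at 4.04 in siUPF1, 4.29 in siControl and 4.92 in Nondifferentiation, from about 15, 16 and 29 reads, and was listed at 0 in siSTAU1 and in Differentiation. HMGA2 stood at 0.26 in siUPF1 and 2.49 in siControl, from about 1 and 5 reads, at 2.20 in Differentiation, from about 7 reads, and was listed at 0 in siSTAU1 and Nondifferentiation. No fold is given for HMGA2, nor for IGF2BP2 against a library at 0. The related LIN28A stood at 1.26 in siUPF1 and 2.07 in siControl and was listed at 0 in the other 3 libraries, so LIN28B was the LIN28 paralog with more than a few reads. The antisense RNAs IGF2BP2-AS1 and RPSAP52, which overlap IGF2BP2 and HMGA2, and the processed pseudogene HMGA1P7 were listed at 0 in all 5. HMGA1 has further processed pseudogenes whose sequence could share its reads, and the sources used here do not say how such reads were counted.

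**Figure D2:**
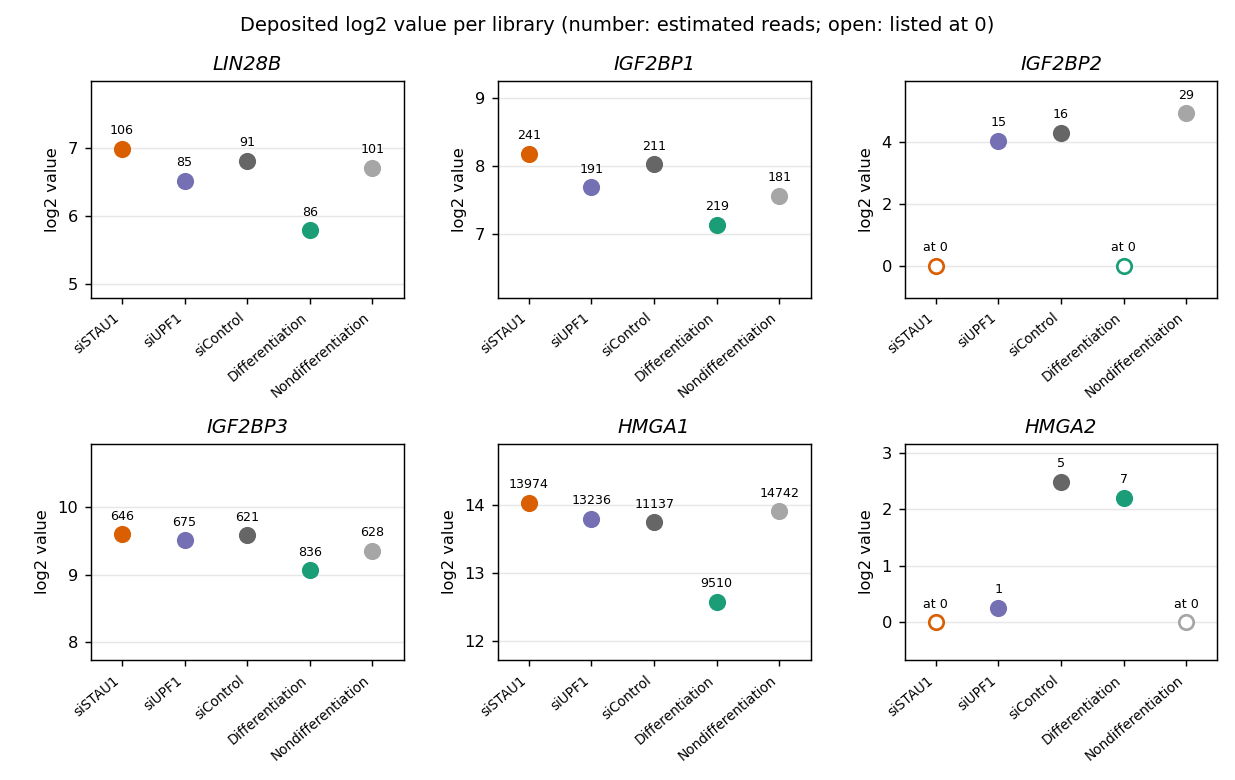
Deposited log2 value (y axis) of each member in each library (x axis), 1 point per library, with the estimated number of reads above it; open circles are genes listed at 0. Differentiation is the lowest library for LIN28B, IGF2BP1, IGF2BP3 and HMGA1, while IGF2BP2 is listed at 0 in siSTAU1 and Differentiation. The share of all genes lowest in Differentiation was not counted.

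In Differentiation against Nondifferentiation, 4 members had reads enough for a fold and all 4 were lower in Differentiation. HMGA1 had a log2 fold of -1.33 (-1.37 to -1.30), which is 2.52-fold lower, and it was the 1 member called, out of 2 that reached the floor. In this pair 21.3% of the 9064 measured genes were called, 10.9% lower and 10.4% higher, and 6.49% of measured genes had a lower log2 fold than HMGA1. LIN28B had -0.92 (-1.34 to -0.51), a fold of 1.90, below the floor in both libraries. IGF2BP1 had -0.43 (-0.72 to -0.15) and also lay below the floor, and IGF2BP3 had -0.29 (-0.44 to -0.14). The intervals lay below 0 for each of these genes. The median over the 4 was -0.68, where the median of all measured genes was 0.02 and 49.1% of them were below 0. The sets are unlike, since LIN28B and IGF2BP1 lay below the floor that all measured genes reached. IGF2BP2, listed at 0 in Differentiation against 4.92 in Nondifferentiation, was 1 of 31 genes at 0 in Differentiation among the 12132 with as high a Nondifferentiation value, and the block listed at 0 in Differentiation may hold genes with about 2 reads.

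The HMGA1 value in Differentiation was 12.58, while the 4 values outside Differentiation spanned 0.29 log2 units, 13.75 to 14.04. How many other genes lay outside their 4 other values in this way was not counted. With 21.3% of measured genes called in Differentiation against Nondifferentiation, it cannot be read as particular to HMGA1. With siControl as the reference, a choice made after the data were seen, its log2 fold in Differentiation was -1.17, that of LIN28B -1.02, that of IGF2BP1 -0.89 and that of IGF2BP3 -0.51. LIN28B is then past 2-fold but not called, since it lies below the floor. IGF2BP3 likewise spanned 0.25 units in the other 4 libraries, LIN28B 0.47 and IGF2BP1 0.62.

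**Figure D3:**
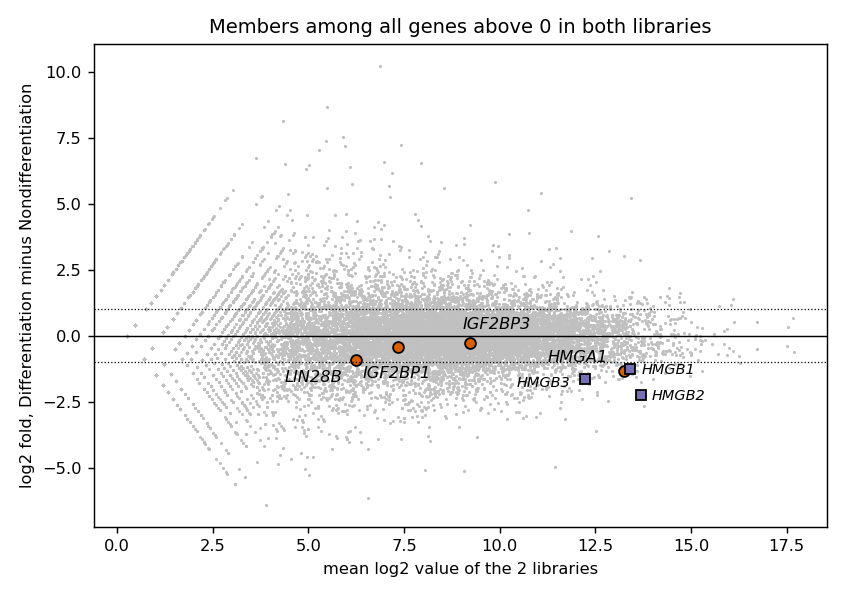
Log2 fold of Differentiation minus Nondifferentiation (y axis) against the mean log2 value of both libraries (x axis) for every gene above 0 in both (grey), with 4 members as orange circles and HMGB1, HMGB2 and HMGB3 as purple squares; dotted lines mark 2-fold. HMGA1, at -1.33, lies past the lower line beside the HMGB genes, while LIN28B, at -0.92, lies just inside it.

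Genes related to the members differed unevenly in this pair. Of 13 other high mobility group genes 11 were measured, 3 were lower and 0 higher, with a median of -0.48. The 3 were the chromatin proteins HMGB2 at -2.23, HMGB3 at -1.65 and HMGB1 at -1.24, with HMGB2 at a level of 12.57 in Differentiation and 14.80 in Nondifferentiation. The nucleosome-binding HMGN2 had -0.72, and HMG20B, a subunit of a histone demethylase complex, had 0.55.

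Genes linked to LIN28B in neuroblastoma were mostly lower. Of 8, 7 were measured and 5 were lower. AURKA, the mitotic kinase, had -2.89, TPX2, its activator, -2.52, and RANBP1, a cofactor of the GTPase RAN, -2.50. RCC1, the exchange factor of RAN, had -1.83 and RAN itself -1.76, while RANGAP1, the GTPase-activating protein of RAN, had -0.94. MYCN, listed at 0 in Differentiation, was below the floor in Nondifferentiation at 5.86. AURKA and TPX2 also act in mitosis, and the list of 12 mitosis genes was lower in 12 of 12, with a median of -2.41. Its summed level was 0.0418% of the Differentiation library and 0.212% of the Nondifferentiation library. The part of mitosis gene levels in the HMGA1 and LIN28B values was not tested, and in bulk RNA fewer expressing cells cannot be told apart from less RNA per cell.

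Of 9 mRNAs for proteins that sit with IGF2BP1 in RNA granules, all 9 were measured, 1 was called lower and 8 lay within 2-fold. All 9 log2 folds were below 0, with a median of -0.52. YBX1, a cold-shock domain protein that packages mRNA, had -1.20, the stabilising protein ELAVL1 was 1.99-fold lower, just short of the threshold, and DHX9, an RNA helicase, had -0.68. PABPC1, the poly(A)-binding protein, had -0.50, HNRNPU -0.27 and MATR3 -0.01. IGF2BP1 and IGF2BP3 had negative log2 folds too, as had 49.1% of all measured genes.

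RNAs reported as bound by IGF2BP proteins split. Of 13, 9 were measured, 2 were lower and 0 higher, and the median was 0.12. IGF2, the growth factor that gave the family its name, stood at 8.95 in Differentiation and 13.92 in Nondifferentiation, a log2 fold of -4.97. H19, its imprinted noncoding neighbour, was listed at 0 in Differentiation, against 9.60 in Nondifferentiation. Both were already lower in siControl than in Nondifferentiation, IGF2 by a log2 fold of -2.35 and H19 by -2.87, so the value depends on which reference is used. ACTB, whose mRNA IGF2BP1 carries, had -0.56, while ABCB1, a drug efflux pump, had 0.74, BTRC, a ubiquitin ligase subunit, 0.74, and CTNNB1, beta-catenin, 0.24. MYC was listed at 0 in Differentiation, against 6.34, below the floor, in Nondifferentiation. Of 14 other oncofetal genes, 6 were measured and 4 were lower: IGF2, H19, the Notch-like ligand DLK1 at -3.59 and the imprinted retroviral-like gene PEG10 at -2.46. GPC3, a glypican, had -0.71 and TPBG 0.66, and AFP, ALPPL2 and the let-7 target TRIM71 were listed at 0 in all 5 libraries.

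In the machinery that makes and reads let-7 most genes lay within 2-fold. Of 19 genes, 16 were measured, 1 was higher and 0 lower, with a median of -0.11. AGO3, an Argonaute protein that holds the small RNA, stood at 7.81 in Differentiation and 6.64 in Nondifferentiation, a log2 fold of 1.17, and DICER1, which cuts the precursor, had 0.76. The uridyltransferases ZCCHC6 (TUT7) and ZCCHC11 (TUT4), which act on let-7 precursors, had 0.29 and 0.06. XPO5, the exporter of precursors, had -0.57, KHSRP -0.55 and HNRNPA1 -0.85. MIRLET7BHG, the host transcript of let-7a-3 and let-7b, had -0.41. Mature let-7 itself is not read by a poly(A) kit: all 12 let-7 family precursor symbols stayed below a log2 value of 5 in every library, so its level was not measured.

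Of 24 other reported let-7 targets, 17 were measured, 3 were lower and 0 higher, with a median of -0.06. CDC25A, a cell cycle phosphatase, had -2.37, RRM2, a ribonucleotide reductase subunit, -2.17, and CCND1, cyclin D1, -1.08. The cell cycle kinase CDK6 had -0.07 and the ubiquitin-conjugating enzyme CDC34 -0.55. TGFBR1, a growth factor receptor, had 0.54, and INSR, the insulin receptor, 0.25. Taken by sequence, the 309 measured genes with CTACCTCA had a median log2 fold of 0.05, with 8.09% lower and 7.44% higher, beside 0.02, 10.9% and 10.3% for the 8452 measured genes with a 3' UTR. The 833 with the 7-letter match had 0.08, with 7.92% lower and 10.1% higher.

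**Figure D4:**
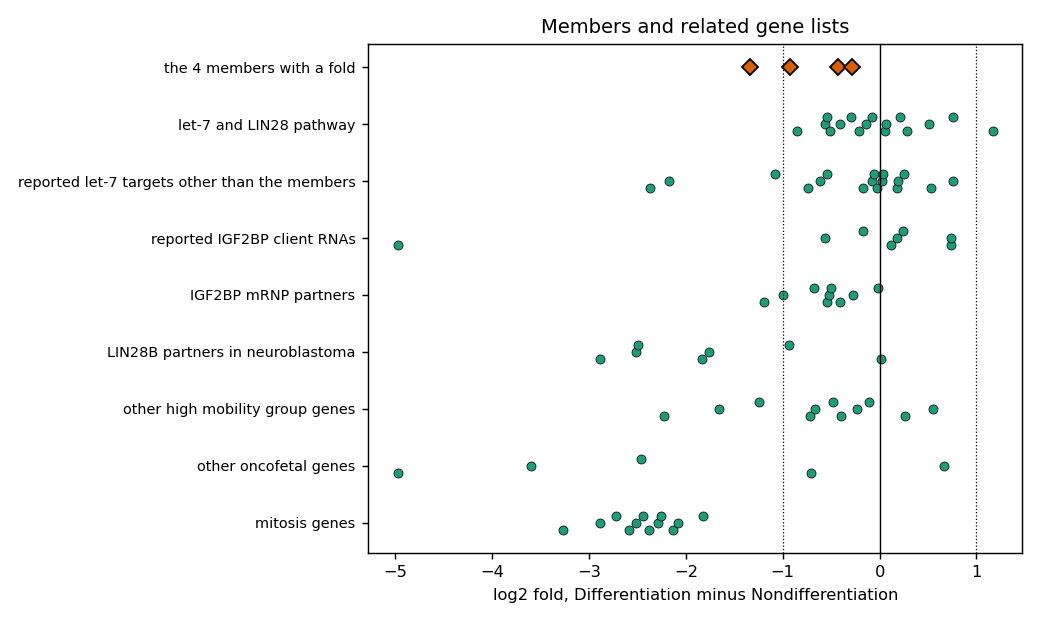
Log2 fold of Differentiation minus Nondifferentiation (x axis) for the 4 members with a fold (orange diamonds) and for the measured genes of 8 related lists (green circles, spread vertically for sight); dotted lines mark 2-fold, and H19, listed at 0 in Differentiation, is not drawn. The members lie between -1.33 and -0.29, mitosis genes all below -1, and the let-7 machinery around 0.

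No member passed 2-fold in either knockdown. In siSTAU1 against siControl 3 members reached the floor and 0 were called, where 0.201% of 8454 measured genes were called, 0.0946% higher and 0.106% lower. HMGA1 had a log2 fold of 0.29 (0.25 to 0.32), above that of 90.7% of measured genes. LIN28B had 0.18 (-0.23 to 0.58), IGF2BP1 0.15 (-0.11 to 0.42) and IGF2BP3 0.02 (-0.14 to 0.18), and these 3 intervals include 0. The median over the 4 was 0.17, beside 0.01 for all measured genes. The 4 include LIN28B, which lay below the floor that all measured genes reached. The middle 95% of measured genes lay between -0.49 and 0.45 in this pair, and the 4 folds lay inside it. With Nondifferentiation as the reference the siSTAU1 log2 fold was 0.62 for IGF2BP1, 0.25 for IGF2BP3 and 0.13 for HMGA1, so these sizes depend on the reference.

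IGF2BP2 was the exception in siSTAU1, at a level too low for a call. It was listed at 0 there, beside about 15 reads in siUPF1, about 16 in siControl and about 29 in Nondifferentiation. Of 12449 genes at a log2 value of 4 or more in each of siUPF1, siControl and Nondifferentiation, 3 were listed at 0 in siSTAU1, IGF2BP2 among them. This threshold was set after the values were seen and lies just under the IGF2BP2 value of 4.04 in siUPF1. Of 12720 genes at or above the IGF2BP2 value in siControl, 13 were listed at 0 in siSTAU1 and 13 in siUPF1. With the threshold of 4, the corresponding counts were 5 of 12441 genes in siUPF1, 5 of 12442 in siControl and 1 of 12447 in Nondifferentiation. Each of these libraries thus had at least 1 such gene.

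In siUPF1 against siControl 3 members reached the floor and 0 were called, where 0.543% of 8475 measured genes were called, 0.401% higher and 0.142% lower. IGF2BP1 had a log2 fold of -0.34 (-0.62 to -0.06), below which lay 9.46% of measured genes. LIN28B had -0.29 (-0.72 to 0.13), IGF2BP2 -0.26 (-1.27 to 0.76), IGF2BP3 -0.07 (-0.23 to 0.08) and HMGA1 0.05 (0.02 to 0.09). Their median was -0.26, beside -0.01 for all measured genes. The sets are unlike, since LIN28B and IGF2BP2 lay below the floor that all measured genes reached. The members that reached it, IGF2BP1, IGF2BP3 and HMGA1, had -0.34, -0.07 and 0.05. None of the members was higher by 2-fold after loss of UPF1, as the design looks for. With Nondifferentiation as the reference IGF2BP1 had 0.12, IGF2BP3 0.15 and HMGA1 -0.11, so the sign of all 3 turned. HMGA1 also turned, to -0.08, once trends of the fold with GC content and transcript length were removed, so its direction in siUPF1 depends on the processing. Set directly against siSTAU1, siUPF1 was lower by 0.49 log2 units for IGF2BP1 (-0.77 to -0.22), by 0.47 for LIN28B (-0.88 to -0.06) and by 0.24 for HMGA1 (-0.27 to -0.20). IGF2BP3 had a log2 fold of -0.09 in this pair, with an interval that includes 0 (-0.25 to 0.06). IGF2BP2 went the other way, at 4.04 in siUPF1 and listed at 0 in siSTAU1. The spread of all genes in this pair was not worked out.

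The 3 let-7 host transcripts that were looked up did not share a direction in siUPF1, and none differed 2-fold. Other hosts were not looked up. MIRLET7BHG stood at 7.76 in siUPF1 and 8.59 in siControl, a log2 fold of -0.83, and at 8.41 in siSTAU1. MIR99AHG, the host of let-7c, stood at 7.30 in siUPF1, 7.46 in siSTAU1 and 8.01 in siControl, and at 6.65 in Nondifferentiation, below both knockdowns. MIRLET7DHG, a let-7d host below the floor, stood at 6.20 in siUPF1, 5.50 in siSTAU1 and 6.02 in siControl. DIS3L2, the exonuclease that degrades uridylated let-7 precursors, had -0.47 in siUPF1 and -0.37 in siSTAU1. Of the 9 granule partners 0 were called in siUPF1, with a median of -0.23 and SYNCRIP lowest at -0.36. IGF2 had -0.80 in siUPF1 and -0.67 in siSTAU1.

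**Figure D5:**
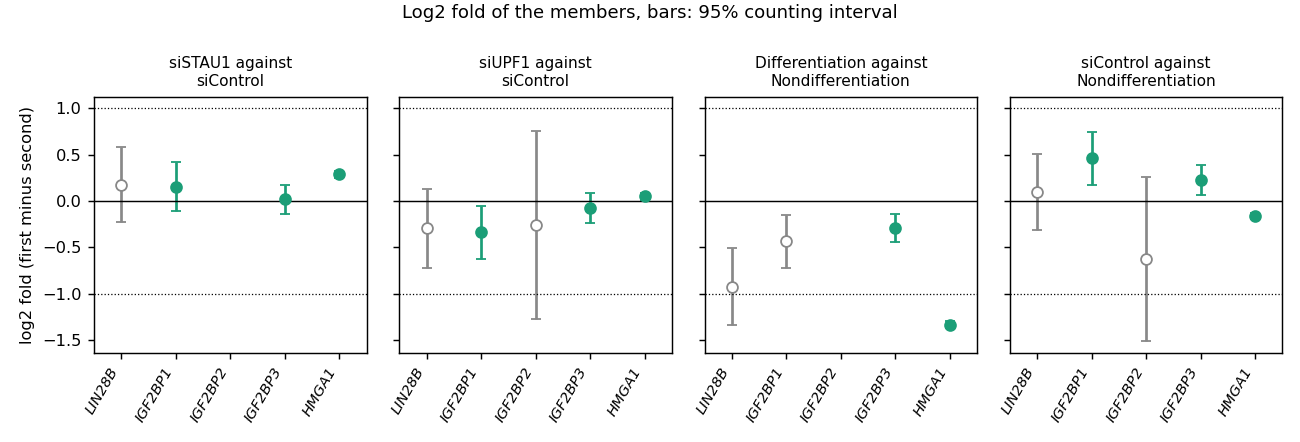
Log2 fold (y axis, first library minus second) of the members with enough reads in each of the 4 comparisons; bars are 95% counting intervals, filled points reached the floor and dotted lines mark 2-fold. HMGA1 in Differentiation, at -1.33, is the single point past 2-fold.

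The references also differed from each other, within 2-fold for the members with a fold. Retinoic acid is listed for Nondifferentiation and not for siControl. In siControl against Nondifferentiation 3 members reached the floor and 0 were called, where 0.796% of 8547 measured genes were called, 0.222% higher and 0.573% lower. IGF2BP1 had 0.46 (0.17 to 0.75), IGF2BP3 0.23 (0.07 to 0.39), LIN28B 0.10 (-0.31 to 0.51), HMGA1 -0.16 (-0.20 to -0.13) and IGF2BP2 -0.62 (-1.51 to 0.26). For IGF2BP1 and IGF2BP3 this gap was larger than the fold in either knockdown.

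Most markers of other cell types were low, and levels were uneven over the libraries. The hepatocyte marker ALB, at 9.02 in siUPF1 and 6.36 in siControl, was called higher, where 0.401% of measured genes were. HBB was called higher in Differentiation against Nondifferentiation, by 2.09-fold, where 10.4% of measured genes were. The summed linear value of 10 epithelial and luminal markers was 620 in siSTAU1, 153 in siUPF1, 65.6 in siControl, 145 in Differentiation and 63.2 in Nondifferentiation, with 10, 7, 5, 8 and 5 of the 10 above 0. KRT8 and KRT18 led in siSTAU1, and ESR1 was listed at 0 in siControl and Nondifferentiation. That of 10 hepatocyte markers was 137 in siSTAU1, 536 in siUPF1, 94.6 in siControl, 6.40 in Differentiation and 68.2 in Nondifferentiation, nearly all from ALB, with AFP, TTR and SERPINA1 at 0 throughout. For blood cells the sums were 311, 127, 134, 361 and 203 in the same order, with HBB at a log2 value of 7.76 in siSTAU1, 6.31 in siUPF1, 5.92 in siControl, 7.82 in Differentiation and 6.75 in Nondifferentiation, and with PTPRC at 0 in all. For scale, the linear value of LIN28B was 127 in siSTAU1 and 91.8 in siUPF1, and that of HMGA1 was 16801 and 14270. The part of these markers in the members' values was not tested. Among neuroblastoma state markers in Differentiation against Nondifferentiation, 3 of 9 noradrenergic genes were lower (TH, ISL1 and DBH) and 1 was higher (CHGA), while of 5 measured mesenchymal genes 2 were higher (NOTCH2 and FN1) and 1 was lower (VIM).

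The genes whose profile over the 5 libraries was most like that of a member were found by the root mean square difference of mean-centred log2 values, among 9198 genes (9197 beside the member, where it is one itself) above 0 in all libraries that reached a log2 value of 7.81 in at least 1. With 5 points per gene and so many candidates, close matches are common. For HMGA1 they were SS18L2, EXOSC7, ACTR5, SNRPE and GAR1, at 0.04 log2 units each. SNRPE, a core protein of splicing particles, stood at 11.60 in Differentiation and 13.01 in Nondifferentiation, and GAR1, a protein of snoRNA particles, at 10.03 and 11.30. For LIN28B they were TMEM123 at 0.03, DCAF4, RBM28 and ATP6V0A2 at 0.05, and ICK at 0.06. For IGF2BP1 they were MLLT3 at 0.05, TOP1P1, MAOA, POLR1A and GCSH at 0.06 to 0.07, where TOP1P1 is a pseudogene that may share reads with its parent. IGF2BP3 spanned under 1 log2 unit and was not matched. IGF2BP2 and HMGA2 were each at 0 in 2 libraries, while every candidate was above 0 in all, so the search could hardly match them. With the listed 0 taken as a value, the nearest were TAGLN at 1.35 and PDE4DIP at 0.59.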

How the data were processed

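RNA of 5 SH-SY5Y cultures, 1 per group, was extracted with Trizol and 500 ng entered a Lexogen QuantSeq kit, per the labels' protocols. The deposited files hold 1 log2 value per gene symbol. The submitters' processing notes list Bowtie2, edgeR and hg19 and give no order; no source used here names the counting tool or says whether strand was used. Taken out of log2, 100% of the values were multiples of 1/5 (tolerance 0.005 after multiplying by 5), and the highest log2 value was 18.01 in each library, a pattern of quantile normalization inferred from the values. It hides differences in total RNA between libraries. Reads were estimated from the spacing of the 100 lowest distinct values; for highly expressed genes they are approximate.

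Log2 folds were differences of deposited values. No test was run, because each group has 1 library. No fold was given from fewer than about 4 reads. The 2-fold call was also tried on simulated library pairs with counting noise only and changes planted in well-expressed genes. LIN28B, IGF2BP1, IGF2BP2 and HMGA2 lie below the level of those genes, so the simulation does not cover them. Members, gene lists and the rule for naming genes (all members, up to 3 highest and 3 lowest of each list and any past 2-fold, and the 5 genes nearest in profile to each member spanning at least 1 log2 unit) were chosen with earlier results of these data known; let-7 host transcripts, MYC, MYCN and some other list genes were named outside it after their values were seen. let-7 sequences came from RefSeq (GRCh38.p14) and 3' UTRs from GENCODE 29, read by gene symbol; the build differs from hg19, so no positions on chromosomes are given. Alternatives were another floor, a 1.5-fold threshold, a pseudocount of 8, centring in 20 bins of level, removal of GC content and length trends, and another reference library. Python 3.11.15, numpy 2.4.6, pandas 2.3.3 and matplotlib 3.10.9 were used. Values of a few list genes are not reported here.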

Additional observations from a re-analysis of the deposited data

How the results depend on the processing

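With 1 choice altered at a time, the count of called members was 1 in Differentiation, HMGA1 each time, and 0 in the other 3 comparisons under each alternative floor, threshold, pseudocount, centring, trend removal and reference. The share of all genes past the fold in Differentiation was 43.5% at 1.5-fold, 28.6% with no floor and 19.7% to 23.8% under the other alternatives. In the other 3 comparisons it was 2.31% to 5.46% at 1.5-fold and 9.19% to 9.84% with no floor. LIN28B, 1.90-fold lower in Differentiation, was past 1.5-fold but below the floor and so not counted. With siControl as reference LIN28B was past 2-fold in Differentiation, at -1.02, but again below the floor and not counted. The log2 fold of HMGA1 in Differentiation ranged from -1.45 (GC content and length trends removed) to -1.17 (siControl as reference, chosen after the data were seen), and that of LIN28B from -1.02 to -0.83. Of 60 recomputed folds of single members 13 moved by more than the counting interval, 9 of them with a change of reference library. In siUPF1 the sign of HMGA1 turned with trend removal (-0.08) and with Nondifferentiation as reference (-0.11). No paired analysis was possible because each group has 1 library and the labels give no replicate numbers. Depth limits IGF2BP2 and HMGA2, with at most about 29 and 7 reads.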
